A study of Mus musculus with 12 samples.

Results

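The genes described here encode the machinery that makes ribosomes in the nucleolus: subunits of RNA polymerase I and the factors that modify, cut and assemble ribosomal RNA. They were chosen by gene symbol, with earlier results of these data known. The pattern took the genes named Utp, Nop, Rrp, Polr1 or Nol with a number or subunit letter, and 8 helicases of the Ddx family. It also took Fbl, Ncl, Npm1, Dkc1, Bop1, Wdr12, Pes1, Gar1 and Nhp2. The pattern found 56 of the 19937 genes measured. By role, 54 of the 56 act in the nucleolus, and 2 matched by name only. These 2 are Nol3, a repressor of apoptosis that is abundant in skeletal and heart muscle, and Nol4.

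RNA polymerase I transcribes the repeated ribosomal DNA into a long precursor RNA. Small nucleolar RNAs and their bound proteins direct chemical modification of that precursor, a large complex called the small subunit processome folds and cuts the part that becomes the small ribosomal subunit, and a second set of helicases, methyltransferases and scaffolds matures the large subunit. The pathway is known to be high in growing and dividing cells and to be under the control of the transcription factor Myc.

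The study deals with YAP1, the transcriptional effector of the Hippo pathway, in rhabdomyosarcoma, a cancer whose cells resemble developing muscle. All 12 samples carried the same alleles, Myf5Cre, R26-LSL-rtTA and Col1a-Teto-hYAP1 S127A, on a C57BL/6 background. In this design Cre made under the Myf5 gene switches on rtTA in cells with a Myf5 history, and rtTA with doxycycline switches on a human YAP1 whose inhibitory phosphorylation site is changed. Tumours were allografts: donors were given doxycycline for 4 weeks, and the cells lying between their hindlimb muscle fibres were grafted into the calf (gastrocnemius) of doxycycline-treated NOD/SCID mice, which are immune-deficient. The groups were tumours at day 0 of doxycycline withdrawal (TUM), tumours 3 days (OFF3) and 6 days (OFF6) after withdrawal, and hindlimb muscle of mice of the same genotype that were never induced (CTL), with 3 arrays in each. A graft also holds cells of the host, control muscle was whole tissue, and the labels do not say whether the 3 samples of a group were separate animals, so each p-value here measures the spread among these arrays alone, which may be technical.

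Expression was measured on 1-colour mouse arrays and is given as log2 of the authors' RMA intensity. Differences are in log2 units ± the standard error of a limma model fitted to all 12 arrays and 19937 genes. A gene was called where its Benjamini-Hochberg adjusted p was under 0.05. On arrays, levels of different genes cannot be set against each other, so each gene is compared only with itself. Arrays of a group correlated closely with each other over all genes, with mean r of 0.9955 or more in TUM, OFF3 and CTL. OFF6 replicate 2 stood apart, with a mean r of 0.9911 with its own group and 0.9952 with the OFF3 arrays. That array was also the lowest of its group for 39 of the 56 genes, and OFF3 replicate 3 was the lowest of its group for 43. Several results that rest on these arrays are given with and without them.

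At 3 days without doxycycline, most of the ribosome-making genes were lower than in the day 0 tumours. Of the 56 genes, 43 were called lower and 1 was called higher in OFF3 tumours than in TUM tumours. Among all genes, 16% were called lower and 13.4% higher. The median difference of the 56 genes was -0.45, against 0.02 for all genes, which is a 1.37-fold lower intensity, and 4 of the 56 fell by 1 log2 unit or more. In 47 of the 56 genes every OFF3 array lay below every TUM array, which held for 22.7% of all genes. In whole tumours, fewer cells making a transcript and less of it per cell cannot be told apart. With arrays centred on their 75th percentile, all genes had 3251 called higher and 2557 lower, against 2671 and 3197 as deposited, while the 56 had 1 higher and 40 lower. Without OFF3 replicate 3, 37 of the 56 were called lower and the median was -0.37. Counts over all genes are not given for that fit. Leaving out an array can move the calls of all genes, so the smaller count is not a result about these genes alone. The same holds for later counts without OFF3 replicate 3.

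**Figure D1:**
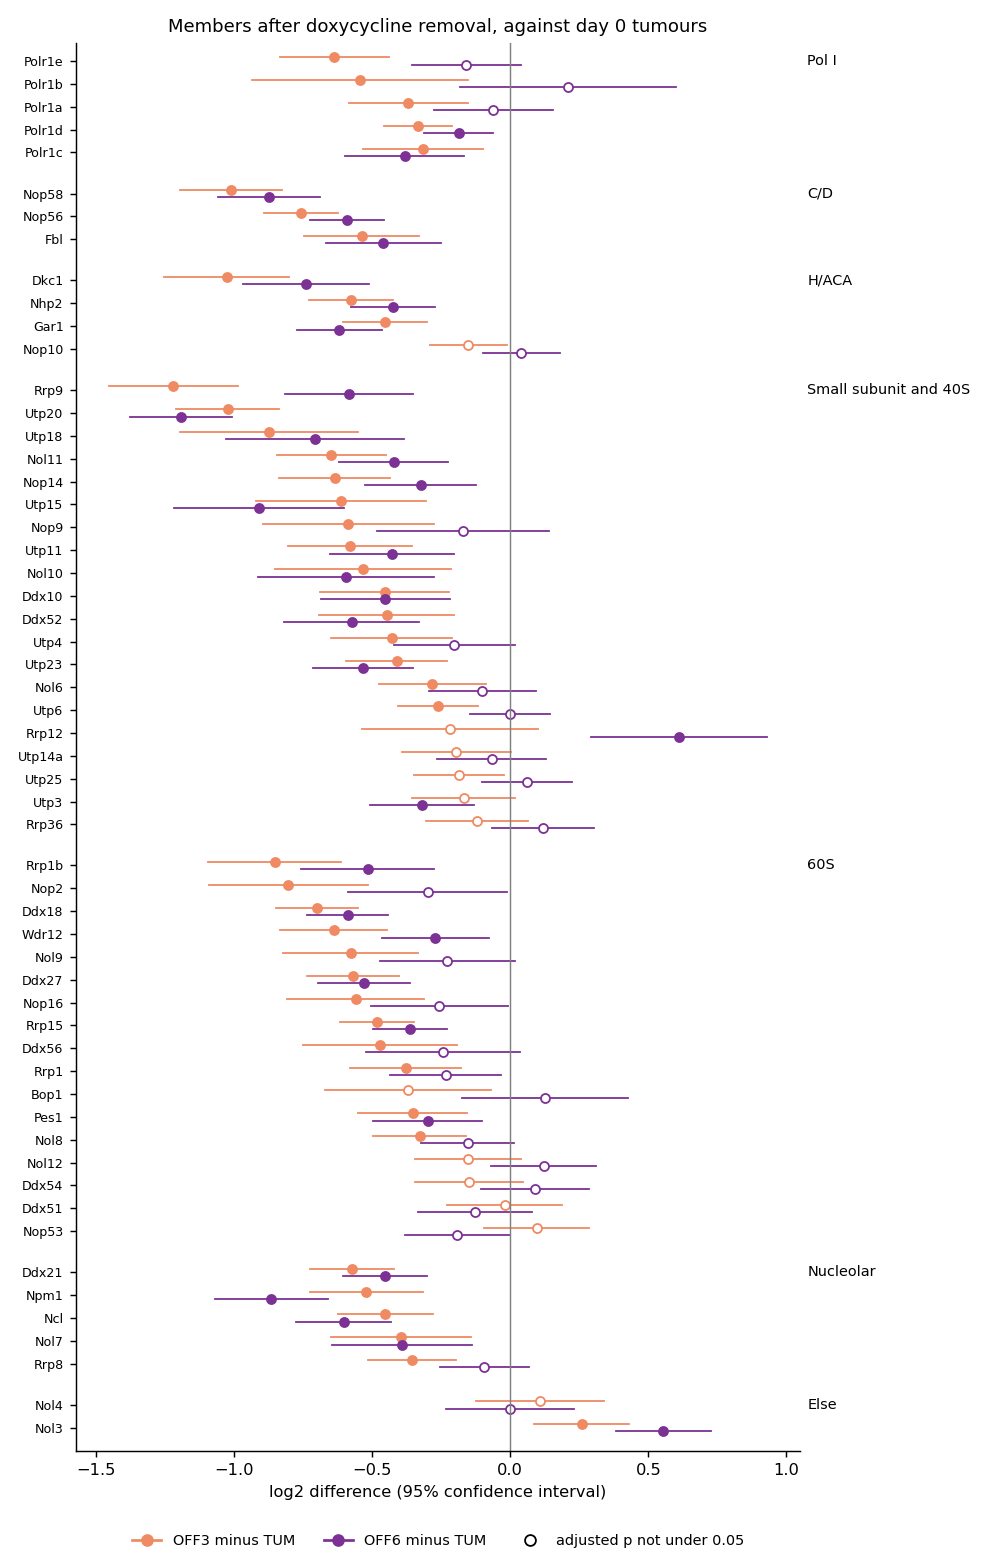
Log2 difference (x axis) with its 95% confidence interval for each of the 56 genes (y axis, grouped by role), OFF3 minus TUM in orange and OFF6 minus TUM in purple, with filled points for adjusted p under 0.05. Most points lie left of 0 at both times, while Rrp12 and Nol3 lie right of it at day 6.

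Proteins of the box C/D particles, which guide 2′-O-methylation of ribosomal RNA, had the lowest median of the role groups, -0.76, with 3 of 3 called lower. Nop58, a core scaffold protein of these particles, had 8.83, 8.74 and 8.54 in OFF3 tumours, against 9.72, 9.59 and 9.83 in TUM tumours. The 2 groups of values did not overlap, and the difference was -1.01 ± 0.08 (adjusted p = 2.32e-06, limma). Nop56, its partner scaffold, had 10.24, 10.18 and 10.15 in OFF3 tumours, against 10.90, 10.98 and 10.95 in TUM tumours, a difference of -0.76 ± 0.06 with no overlap. Fbl, the methyltransferase fibrillarin itself, differed by -0.54 ± 0.10, with OFF3 arrays at 9.02, 9.02 and 8.71 and TUM arrays at 9.43, 9.62 and 9.32.

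The box H/ACA particles, which turn uridine into pseudouridine, had 3 of their 4 proteins called lower, with a median of -0.51. Dkc1, the pseudouridine synthase dyskerin, had 8.55, 8.40 and 8.10 in OFF3 tumours, against 9.45, 9.31 and 9.37 in TUM tumours. All OFF3 values were well below all TUM values, and the difference was -1.03 ± 0.10 (adjusted p = 1.19e-05, limma). Its partners Nhp2 and Gar1 differed by -0.58 ± 0.07 and -0.45 ± 0.07. The smallest partner protein, Nop10, was not called at -0.15 ± 0.06, although its 10.13, 10.08 and 10.23 in OFF3 tumours lay below its 10.30, 10.28 and 10.32 in TUM tumours.

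All 5 RNA polymerase I subunits found by the symbol rule, those named Polr1, were called lower, with a median of -0.37. Polr1a, the largest subunit, differed by -0.37 ± 0.10, and Polr1b, the second largest, by -0.54 ± 0.18. Polr1b had 9.24, 9.13 and 8.97 in OFF3 tumours, against 9.61, 9.72 and 9.64 in TUM tumours. Polr1e, a subunit particular to this polymerase, differed by -0.64 ± 0.09. Polr1c and Polr1d, which also serve RNA polymerase III, differed by -0.32 ± 0.10 and -0.33 ± 0.06, although a second probe set of Polr1d gave 0.02, with which 4 of the 5 were called lower. These calls rested in part on 1 array: without OFF3 replicate 3, 2 of the 5 subunits were called, at a median of -0.32, and the calls of Polr1a (-0.29), Polr1b (-0.47) and Polr1c (-0.25) were lost. Polr1b also lost its call without any 1 TUM or CTL array or without OFF3 replicate 2 (differences of -0.57 to -0.51), and Polr1c without any 1 TUM array or OFF3 replicate 2 (-0.34 to -0.30).

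Of the 20 factors of the small subunit processome and later small subunit maturation, 15 were called lower, with a median of -0.45. Rrp9, which binds the U3 small nucleolar RNA, had the largest fall of all 56 genes. It had 7.72, 7.76 and 7.51 in OFF3 tumours, against 8.95, 8.80 and 8.90 in TUM tumours, a difference of -1.22 ± 0.11 (adjusted p = 3.57e-06, limma). Utp20, a very large scaffold of the processome, had 8.86, 8.74 and 8.63 in OFF3 tumours, against 9.74, 9.81 and 9.74 in TUM tumours, a difference of -1.02 ± 0.09. Neither gene had any overlap between the groups. Utp18, a WD-repeat protein of the processome, differed by -0.87 ± 0.15, but its OFF3 values of 8.48, 8.10 and 7.77 were widely spread, against 9.08, 8.90 and 8.995 in TUM tumours.

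A subcomplex known to be linked to transcription of the ribosomal DNA includes Utp4, Utp15 and Nol11, and these 3 differed by -0.43 ± 0.10, -0.61 ± 0.14 and -0.65 ± 0.09. The 5 factors of this group that were not called were Rrp12 (-0.22), Utp14a (-0.19), Utp25 (-0.19), Utp3 (-0.17) and Rrp36 (-0.12). None of their standard errors exceeded 0.15. Rrp12 and Rrp36 had every OFF3 array below every TUM array all the same, and the arrays of Utp14a, Utp25 and Utp3 overlapped between the groups.

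Of the 17 factors of large subunit maturation, 12 were called lower, with a median of -0.47. Rrp1b differed by -0.85 ± 0.11, with OFF3 arrays at 7.64, 7.50 and 7.24 and TUM arrays at 8.31, 8.28 and 8.35. Nop2, a methyltransferase that acts on the large ribosomal RNA, differed by -0.80 ± 0.13. Pes1, Bop1 and Wdr12 form a trimer that is needed for large subunit processing, and their differences were -0.35 ± 0.09, -0.37 ± 0.14 and -0.64 ± 0.09. The first and last were called, and Bop1 was not (adjusted p = 0.0632, limma; 0.00408 to 0.221 when single arrays were left out), although its 9.89, 9.90 and 9.64 in OFF3 tumours all lay below its 10.17, 10.25 and 10.12 in TUM tumours. The others not called were Nol12 (-0.15), the helicases Ddx54 (-0.15) and Ddx51 (-0.02), and Nop53 (0.10), which in yeast brings the RNA exosome to the maturing large subunit.

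The nucleolar proteins with several functions were all called lower, 5 of 5, with a median of -0.45. Ncl, nucleolin, had 10.96, 10.66 and 10.79 in OFF3 tumours, against 11.25, 11.19 and 11.33 in TUM tumours, a difference of -0.45 ± 0.08. Npm1, nucleophosmin, a histone and ribosome chaperone, had 10.55, 10.35 and 10.37 in OFF3 tumours, against 10.95, 10.85 and 11.04 in TUM tumours, a difference of -0.52 ± 0.09. Neither overlapped. The helicase Ddx21 differed by -0.57 ± 0.07 and the methyltransferase Rrp8 by -0.36 ± 0.07, while Nol7 was called at -0.40 ± 0.12 with overlapping arrays.

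Of the 2 genes that act elsewhere, Nol3 was the only 1 of the 56 called higher, at 0.26 ± 0.08, with 9.90, 10.06 and 10.03 in OFF3 tumours, against 9.70, 9.80 and 9.71 in TUM tumours. Its call was lost without TUM replicate 1 or 3 or OFF3 replicate 2 or 3 (0.23 to 0.25). Nol4 was not called at 0.11 ± 0.11. In all, 36 of the 43 lower calls were kept in each of the 12 fits that left out 1 array. Besides Polr1a, Polr1b and Polr1c, calls were lost for Nol10 (without TUM replicate 3 or OFF3 replicate 3, -0.50 and -0.36), Ddx56 (without TUM replicate 2, -0.44), Nol6 (without any 1 TUM array or OFF3 replicate 3, -0.30 to -0.23) and Nol7 (without TUM replicate 1 or 3 or OFF3 replicate 2 or 3, -0.37 to -0.32).

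Markers of dividing cells moved the same way. All 7 measured (of a list that includes Mki67, Top2a and Plk1) were called lower in OFF3 tumours, with a mean log2 level of 8.56, 8.41 and 7.90 in OFF3 tumours, against 10.29 to 10.33 in TUM tumours. OFF3 replicate 3, the lowest array of its group for most of the ribosome-making genes, was also the lowest for these markers. Myc, which codes for a transcription factor, had 9.82, 9.62 and 9.31 in OFF3 tumours, against 11.0015, 11.13 and 11.05 in TUM tumours, and fell by 1.48 ± 0.12 with no overlap. Over the same arrays, all 9 mature muscle markers were called higher, with means of 12.16, 12.13 and 12.47 in OFF3 tumours, against 11.15 to 11.27 in TUM tumours. So were 5 of 6 fibroblast markers (11.47 to 11.57 in OFF3, against 10.45 to 10.50 in TUM) and 5 of 5 endothelial markers (8.98 to 9.06, against 8.27 to 8.33). Of 7 macrophage markers, 3 were called higher and 1 lower (means of 10.90 to 10.997 in OFF3, against 10.78 to 10.81 in TUM). Markers of the tumour's muscle lineage were split, with 3 of 7 called higher and 2 lower. Their means were 10.11 to 10.16 in OFF3, against 9.82 to 9.88 in TUM. The part of a change in cell makeup or in division in the lower level of the ribosome-making genes was not tested.

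**Figure D2:**
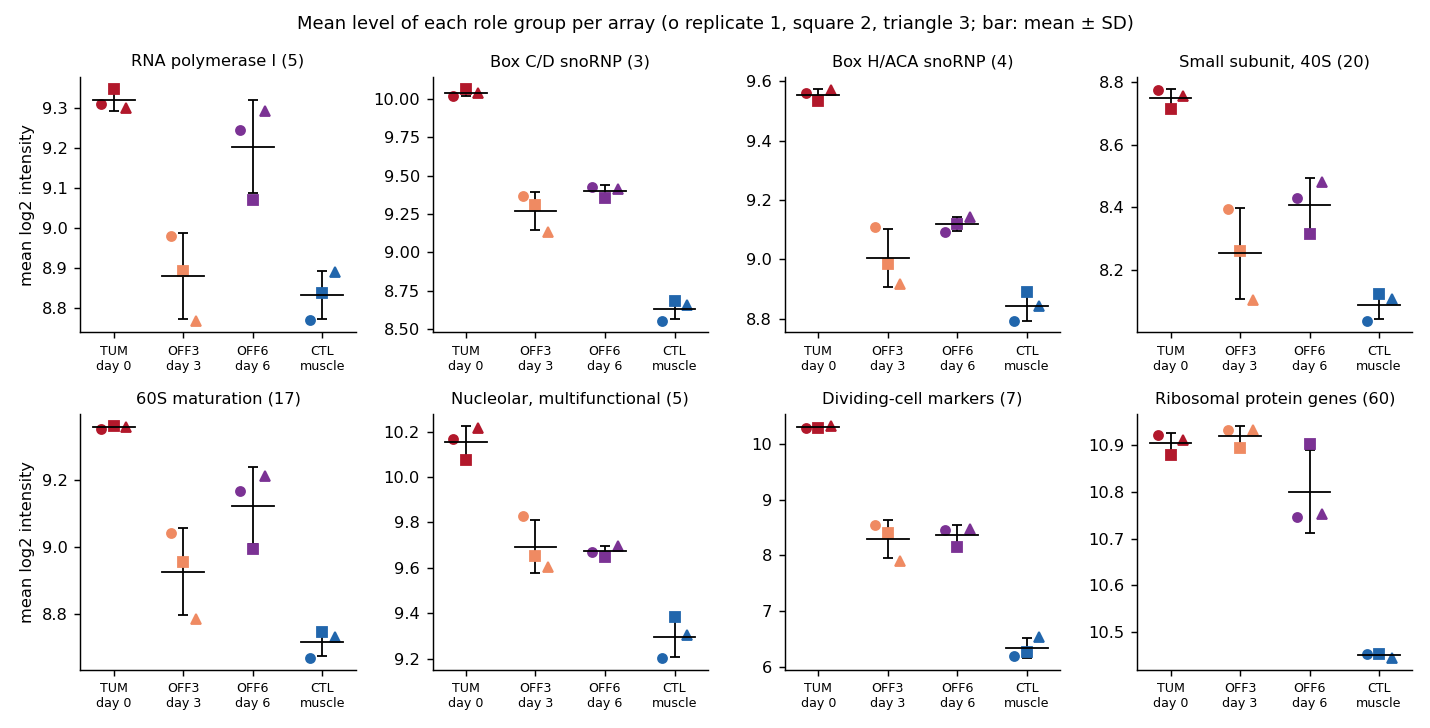
Mean log2 intensity per array (y axis, a separate scale in each panel) of the 6 nucleolar role groups, the dividing-cell markers and the ribosomal protein genes, in TUM, OFF3, OFF6 and CTL arrays (x axis), with the mean and SD of 3 arrays in black. In the 6 role groups all OFF3 arrays lie below all TUM arrays, while the ribosomal protein genes of OFF3 and TUM tumours overlap.

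The promoters of these genes were searched for the E-box CACGTG, which reads the same on both strands. Myc and its partner Max are known to bind this hexamer. The RefSeq promoter table (GRCm38.p6, from 250 bases before to 50 bases after each start) held 45 of the 56 genes. The hexamer stood in 7 of these 45 genes (15.6%), against 2187 of the 27025 genes in the table (8.09%). The hexamer GGAATG, or CATTCC on the other strand, the core bound by the TEAD partners of YAP1, stood in 2 of the 45 (4.44%), against 16.6% of all genes. Such a match is a description of letters and does not show binding. The shares were not adjusted for the base makeup of the promoters, and a part of Myc in the lower levels was not tested. The stretches around the E-box are shown for 3 of the 7 genes, those in which it lies only before the annotated start, with the hexamer in capitals and each gene's own strand read 5′ to 3′. They lie at chr6:125131793-125131858 (Nop2, plus strand), chr11:93885751-93885816 (Utp18, minus strand) and chr11:107189389-107189454 (Nol11, minus strand) of GRCm38.p6.
Nop2: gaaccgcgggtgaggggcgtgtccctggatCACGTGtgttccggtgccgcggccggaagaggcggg
Utp18: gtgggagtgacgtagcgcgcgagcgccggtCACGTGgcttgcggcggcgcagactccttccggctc
Nol11: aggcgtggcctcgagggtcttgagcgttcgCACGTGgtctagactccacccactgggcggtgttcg
All 3 of these genes were called lower at day 3, as were 3 others with the hexamer, Pes1, Utp20 and Utp4. Utp25, which also holds it, was not called. Of the 37 genes called lower that had a promoter in the table, 6 held the hexamer (16.2%), and of the 8 others, 1 did (12.5%).

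At 6 days after withdrawal, 30 of the 56 were called lower in OFF6 tumours than in TUM tumours and 2 higher, with a median of -0.30, against 0.05 for all genes. Among all genes, 16.6% were called lower and 14.9% higher. Every OFF6 array lay below every TUM array in 35 of the 56, against 21.6% of all genes. These OFF6 differences share the TUM arrays with the OFF3 differences. Without OFF6 replicate 2, 29 were called lower and 5 higher, with 18.4% and 16.2% of all genes called in the 2 directions. Over the same arrays, 7 of 7 dividing-cell markers were called lower in OFF6 than in TUM tumours (median -1.80), and 8 of 9 mature muscle markers were called higher (median 1.03). Of the fibroblast markers 4 of 6 were called higher and 1 lower. Of the endothelial markers 4 of 5 were called higher, and of the macrophage markers 2 of 7 were called lower. Of 7 markers of the tumour's muscle lineage, 4 were called higher and 2 lower (median 0.39). Without OFF6 replicate 2, 4 macrophage markers were called lower and 3 endothelial markers higher. In that fit 8 mature muscle markers were called higher and 1 lower. Their part in the result was not tested.

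The proteins of the modification particles were again lower at day 6. All 3 box C/D proteins were called lower, with a median of -0.59, and Nop58 had 8.81, 8.84 and 8.87 in OFF6 tumours, a difference of -0.87 ± 0.08 from TUM tumours (adjusted p = 6.24e-06, limma). Of the box H/ACA proteins, Dkc1 differed by -0.74 ± 0.10, Gar1 by -0.62 ± 0.07 and Nhp2 by -0.42 ± 0.07, while Nop10 was at 0.04 ± 0.06. The OFF6 arrays of Dkc1, at 8.65, 8.52 and 8.74, lay wholly below the TUM arrays.

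Of the 20 small subunit factors, 12 were called lower and 1 higher, with a median of -0.37. Utp20 had the largest difference of the 56 at day 6, -1.19 ± 0.09, with 8.46, 8.73 and 8.53 in OFF6 tumours, against 9.74, 9.81 and 9.74 in TUM tumours. Utp15 differed by -0.91 ± 0.14 and Utp18 by -0.71 ± 0.15. Utp3, one of the processome proteins, was called at this time (-0.32 ± 0.09) but its call was lost without TUM replicate 1 (-0.28) or OFF6 replicate 1 (-0.26). The small subunit factors not called were Nol6 (-0.10), Nop9 (-0.17), Rrp36 (0.12), Utp14a (-0.07), Utp25 (0.06), Utp4 (-0.20) and Utp6 (-0.00).

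Rrp12, which in yeast and human cells takes part in small subunit maturation and export, was called higher. It had 9.08, 8.37 and 9.06 in OFF6 tumours, against 8.20, 8.33 and 8.15 in TUM tumours, a difference of 0.61 ± 0.15 (adjusted p = 0.00641, limma). Replicate 2 lay close to the TUM arrays and the other OFF6 arrays well above them, and without replicate 2 the difference was 0.84.

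Of the 17 large subunit factors 6 were called lower, with a median of -0.24, and of the 5 polymerase subunits 2 were, Polr1c (-0.38 ± 0.10) and Polr1d (-0.19 ± 0.06), with a median of -0.16. With the second probe set of Polr1d (0.16), 1 of the 5 subunits was called lower and the median was -0.06. The large subunit factors called were Ddx18, Ddx27, Rrp1b, Rrp15, Pes1 and Wdr12, with differences from -0.59 to -0.27. Those not called were Nol9 (-0.23), Nop16 (-0.26), Nop2 (-0.30), Ddx56 (-0.24), Rrp1 (-0.23), Nop53 (-0.19), Nol8 (-0.15), Ddx51 (-0.13), Ddx54 (0.09), Nol12 (0.12) and Bop1 (0.13). Polr1a (-0.06), Polr1b (0.21) and Polr1e (-0.16) were not called either. Bop1 had 10.51, 9.92 and 10.49 in OFF6 tumours, against 10.17, 10.25 and 10.12 in TUM tumours, so that 2 OFF6 arrays lay above and 1 below all TUM arrays. Polr1b was split in the same way, with 10.15, 9.29 and 10.17 in OFF6 tumours, against 9.61, 9.72 and 9.64 in TUM tumours. Without replicate 2, Bop1 (0.32), Polr1b (0.50) and Nol12 (0.23) were called higher than in TUM tumours.

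Npm1 and Ncl were called lower at day 6, with differences of -0.87 ± 0.09 and -0.60 ± 0.08 from TUM tumours. Npm1 had 9.98, 10.19 and 10.07 and Ncl had 10.64, 10.66 and 10.66 in OFF6 tumours, all below the TUM arrays given above. Ddx21 (-0.45) and Nol7 (-0.39) were called too, and Rrp8 (-0.09) was not. Nol3 was higher than in TUM tumours by 0.55 ± 0.08, with 10.37, 10.12 and 10.39 in OFF6 tumours, and Nol4 was at -0.00 ± 0.11. Of the 30 lower calls, 23 were kept in each fit without 1 array. Besides Utp3, the calls lost were those of Nop14 (without TUM replicate 1, -0.30), Polr1c (without OFF6 replicate 1, -0.31), Polr1d (without TUM replicate 2 or OFF6 replicate 1 or 3, -0.20 to -0.15), Nol7 (without TUM replicate 1 or 3 or OFF6 replicate 1 or 2, -0.40 to -0.31), Pes1 (without TUM replicate 1 or 2 or OFF6 replicate 1 or 3, -0.31 to -0.26) and Wdr12 (without any 1 TUM array or OFF6 replicate 1 or 2, -0.29 to -0.23).

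**Figure D3:**
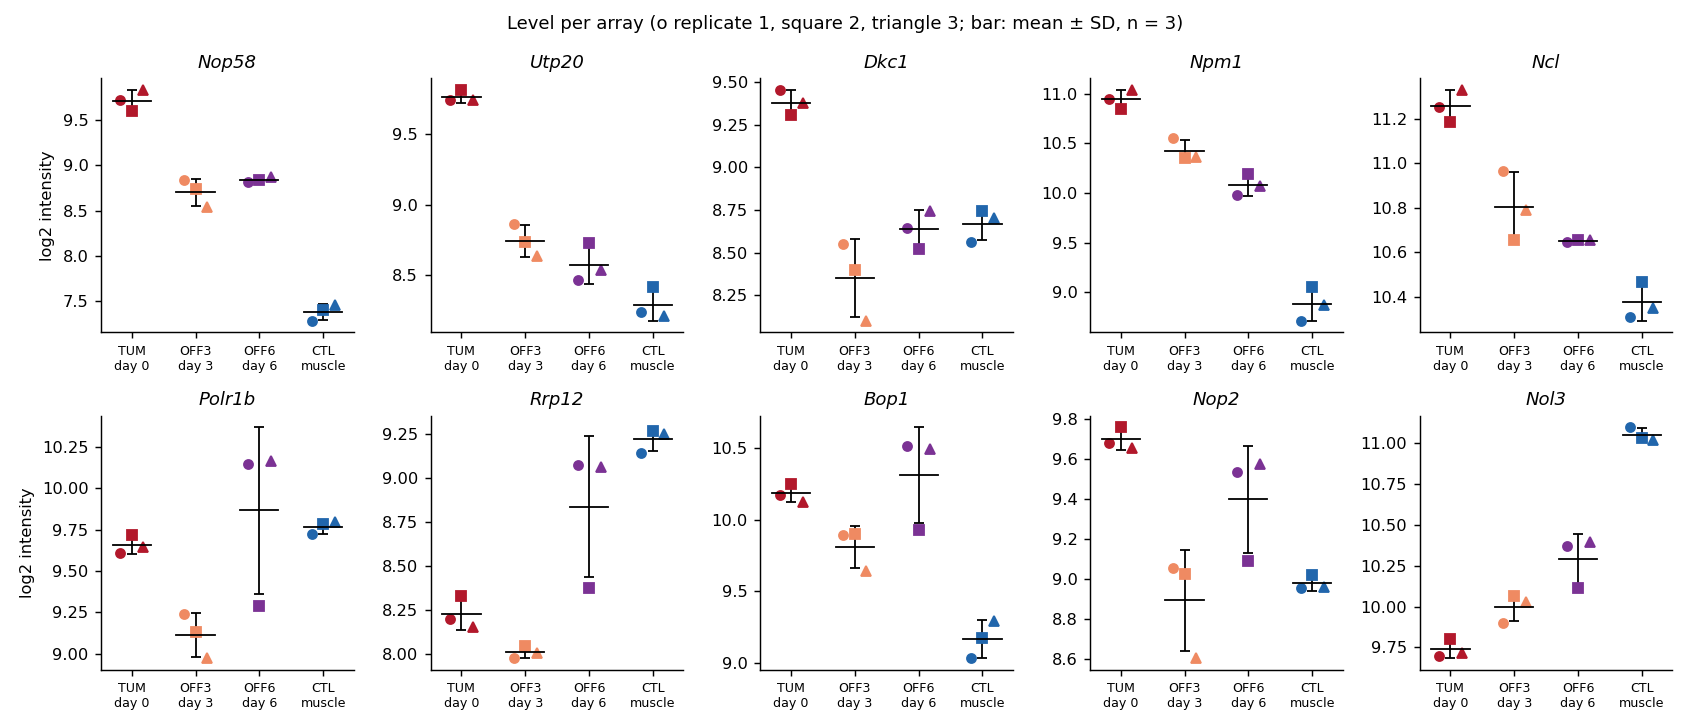
Log2 intensity of each array (y axis, a separate scale in each panel) for 10 genes, in TUM, OFF3, OFF6 and CTL arrays (x axis), with the mean and SD of 3 arrays in black. Nop58, Utp20 and Npm1 lie below their TUM arrays at both times, whereas Polr1b, Rrp12, Bop1 and Nop2 have OFF6 replicates 1 and 3 well above replicate 2.

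The comparison of OFF6 with OFF3 tests directly whether the genes differed between the 2 times. Of the 56, 10 were called higher in OFF6 tumours and 1 lower, with a median of 0.17, against 0.02 for all genes. Among all genes, 6.05% were called higher and 4.38% lower. Rrp12 (0.83 ± 0.15), Polr1b (0.75 ± 0.18) and Rrp9 (0.64 ± 0.11) had the largest differences. The others called higher were Bop1 (0.50), Nop2 (0.50), Polr1e (0.48), Wdr12 (0.37), Nol3 (0.30), Rrp8 (0.26) and Utp6 (0.26). Npm1 was called lower (-0.34 ± 0.09).

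Rrp9 had 8.36, 8.05 and 8.49 in OFF6 tumours, against 7.72, 7.76 and 7.51 in OFF3 tumours, and the 2 groups did not overlap. Nop2 had 9.53, 9.09 and 9.57 in OFF6 tumours, against 9.05, 9.02 and 8.60 in OFF3 tumours, so that OFF6 replicate 2 lay just above the highest OFF3 array. Polr1b was the same in this respect, with its OFF6 replicate 2 at 9.29 and its highest OFF3 array at 9.24.

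Of the 11 genes called, only Rrp12 and Rrp9 were kept in all 12 fits that left out 1 array. The call of Polr1e was lost without OFF6 replicate 3 (0.43). The calls of the other 8 genes (Bop1, Nol3, Nop2, Npm1, Polr1b, Rrp8, Utp6 and Wdr12) were each lost without OFF3 replicate 2 or 3 and without OFF6 replicate 1 or 3. Where their calls were lost, the differences were 0.39 to 0.54 for Bop1, 0.25 to 0.33 for Nol3, 0.36 to 0.57 for Nop2, -0.38 to -0.28 for Npm1, 0.60 to 0.76 for Polr1b, 0.18 to 0.31 for Rrp8, 0.22 to 0.27 for Utp6 and 0.28 to 0.40 for Wdr12. The calls of Bop1, Nol3, Nop2, Npm1 and Rrp8 were also lost in fits that lacked a TUM or CTL array, in which the difference itself is the same. The number of the 56 genes called ran from 2 without OFF6 replicate 3 to 27 without OFF6 replicate 2. Without OFF3 replicate 3, there were 3 called higher and 1 lower, at a median of 0.13 (limma; 17 and 9 at an unadjusted p under 0.05). Without OFF6 replicate 2, 24 were called higher and 3 lower (Npm1, Nop53 and Utp20), at a median of 0.21, with 12% and 12.4% of all genes called in the 2 directions. Fitted on the 6 arrays alone, limma called 0 of the 56 and 30 of all genes, with 23 of the 56 at an unadjusted p under 0.05. OFF6 replicate 2 also differed in markers of other cells. Its mean level was 11.02 for macrophage markers, against 10.37 and 10.41 in the other OFF6 arrays and 10.90 to 10.997 in OFF3 arrays. For fibroblast markers it was 11.53, against 10.97 and 10.91, with OFF3 arrays at 11.47 to 11.57. For markers of the muscle lineage it was 10.09, against 10.52 and 10.50, with OFF3 arrays at 10.11 to 10.16. Their part in the difference between the times was not tested. Dividing-cell markers had means of 8.46, 8.16 and 8.48 in OFF6 tumours, against 8.56, 8.41 and 7.90 in OFF3 tumours, and the 2 groups of values overlapped.

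Against muscle that was never induced, the day 0 tumours had most of these genes high. In TUM tumours 45 of 56 were called higher than in CTL muscle and 3 lower, with a median of 0.71, against -0.15 for all genes. Among all genes, 30.3% were called higher and 45.9% lower. Every TUM array lay above every CTL array in 46 of the 56, against 32.3% of all genes. Markers of other cells differed as well. Dividing-cell markers had means of 10.29 to 10.33 in TUM and 6.19 to 6.53 in CTL, macrophage markers 10.78 to 10.81 and 7.73 to 7.95, and mature muscle markers 11.15 to 11.27 and 13.08 to 13.14, and their part in the result was not tested. Scaling matters here, since the median of all genes was -0.15 as deposited, -0.04 after quantile normalisation, -0.29 with arrays centred on their median and -0.39 with arrays centred on their 75th percentile. Under these the 56 genes had 39 higher and 7 lower, 40 and 6, and 38 and 7, with medians of 0.50, 0.57 and 0.46. All genes had 5744 called higher and 6904 lower after quantile normalisation, and 5293 and 11925 with centring on the median. With centring on the 75th percentile, all genes had 4765 called higher and 12762 lower, against 6038 and 9161 as deposited.

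Nop58 had the largest difference between tumour and muscle. It had 9.72, 9.59 and 9.83 in TUM tumours, against 7.28, 7.40 and 7.46 in CTL muscle, a difference of 2.33 ± 0.08 (adjusted p = 7.79e-11, limma), about 5.04-fold. Npm1 differed by 2.06 ± 0.09, with 10.95, 10.85 and 11.04 in TUM tumours, against 8.72, 9.05 and 8.88 in CTL muscle. Nhp2 differed by 1.63 ± 0.07, with 9.42, 9.39 and 9.39 in TUM tumours, against 7.70, 7.88 and 7.74 in CTL muscle. In none of the 3 did the groups overlap. Among the small subunit factors, Utp18 (1.51), Utp20 (1.48) and Utp15 (1.37) followed.

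All 3 box C/D proteins, 3 of 4 box H/ACA proteins, 17 of 20 small subunit factors, 15 of 17 large subunit factors and 4 of 5 multifunctional nucleolar proteins were called higher. Their medians were 1.11, 0.71, 0.67, 0.71 and 0.88. The 5 polymerase subunits were mixed, with 3 called higher and a median of 0.77. With the second probe set of Polr1d (-0.30), 2 were called higher and 1 lower, at a median of -0.11. Polr1e (1.05 ± 0.09), Polr1c (0.90 ± 0.10) and Polr1d (0.77 ± 0.06) were called, and the 2 largest subunits were not, Polr1a at -0.17 ± 0.10 and Polr1b at -0.11 ± 0.18. Polr1a had 9.41, 9.46 and 9.48 in TUM tumours, against 9.55, 9.72 and 9.57 in CTL muscle, and Polr1b had 9.61, 9.72 and 9.64, against 9.72, 9.78 and 9.80. For both, every tumour array lay below every muscle array, although the closest Polr1b values are equal at 2 decimals, whereas Polr1c and Polr1e had every tumour array above. The probe set used for Polr1d did too, and its second probe set went the other way.

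The 3 genes lower in TUM tumours were Nol3 (-1.31 ± 0.08), Rrp12 (-0.997 ± 0.15) and Nop10 (-0.19 ± 0.06). Nol3, the muscle apoptosis repressor, had 9.70, 9.80 and 9.71 in TUM tumours, against 11.10, 11.03 and 11.02 in CTL muscle. Rrp12 had 8.20, 8.33 and 8.15 in TUM tumours, against 9.15, 9.27 and 9.25 in CTL muscle. Neither overlapped. Not called were Nol12 (0.15), Nol4 (-0.15), Nol7 (-0.25), Nol8 (0.12), Rrp36 (0.10) and Utp6 (0.07), besides the 2 polymerase subunits. Of the 45 higher calls, 41 were kept in each fit without 1 array. Those lost were Nol6 (without TUM replicate 2 or 3 or CTL replicate 1, 0.16 to 0.25), Nop53 (without TUM replicate 3 or CTL replicate 1, 0.23 and 0.20), Utp25 (without TUM replicate 2 or 3 or any 1 CTL array, 0.16 to 0.20) and Wdr12 (without TUM replicate 1 or CTL replicate 1 or 2, 0.21 to 0.24). Wdr12 and Utp25 also lay below 0 after quantile normalisation (-0.01 and -0.09) and after centring on the 75th percentile (-0.00 and -0.06), and Nop53 did so after the second of these (-0.01).

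**Figure D4:**
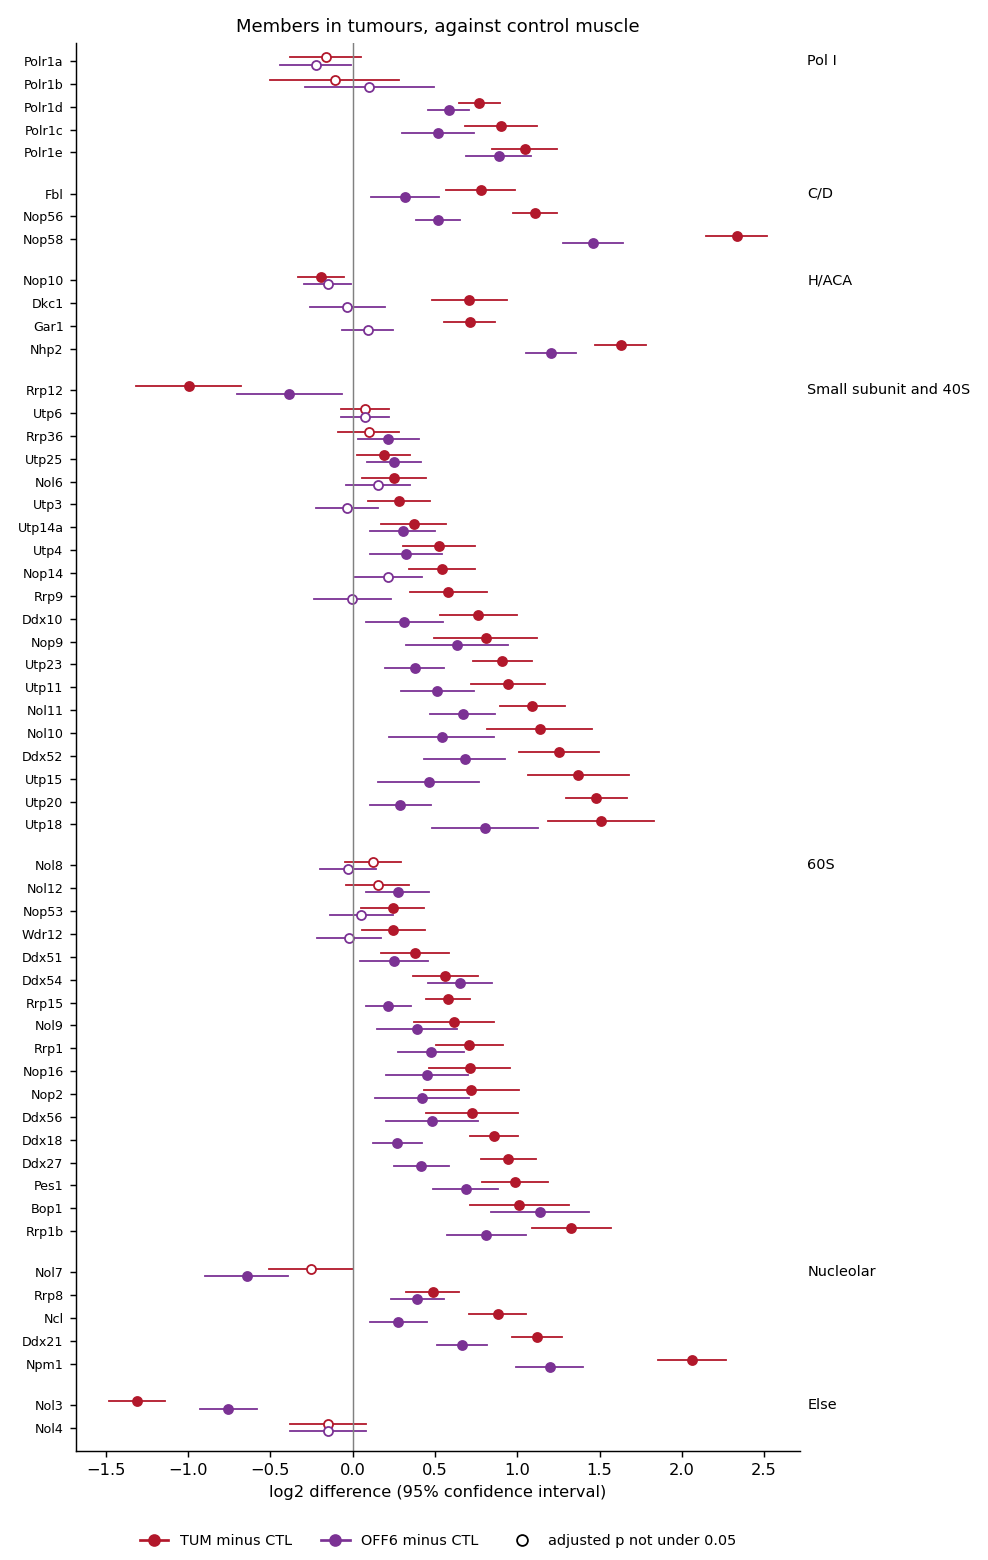
Log2 difference (x axis) with its 95% confidence interval for each of the 56 genes (y axis, grouped by role), TUM minus CTL in red and OFF6 minus CTL in purple, with filled points for adjusted p under 0.05. Nop58, Npm1 and Nhp2 lie farthest right at day 0, and Nol3 and Rrp12 lie left of 0 at both times.

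After withdrawal the tumours still differed from muscle in many of these genes. In OFF3 tumours 28 of 56 were called higher than in CTL muscle and 11 lower, with a median of 0.25, against 28.4% and 41.4% of all genes. Without OFF3 replicate 3, there were 32 called higher and 8 lower, at a median of 0.34. In OFF6 tumours 39 were called higher and 3 lower, with a median of 0.32, against 28.1% and 36.1% of all genes, and every OFF6 array lay above every CTL array in 37 of the 56, against 28.8%. In both comparisons 7 of 7 dividing-cell markers were called higher (medians of 2.04 in OFF3 and 2.20 in OFF6 tumours), as were 7 of 7 macrophage markers (3.09 and 2.83), and 9 of 9 mature muscle markers were called lower (-0.84 and -0.88), and their part in the results was not tested. With the second probe set of Polr1d, 2 polymerase subunits were called higher than in CTL muscle at each time, against 3 with the probe set used, and 3 lower in OFF3 tumours, against 2. The 11 lower in OFF3 tumours were Rrp12 (-1.22), Nol3 (-1.05), Polr1b (-0.65), Nol7 (-0.65), Rrp9 (-0.64), Polr1a (-0.53), Wdr12 (-0.39), Nop10 (-0.34), Dkc1 (-0.32), Nol8 (-0.20) and Utp6 (-0.19). The 3 lower in OFF6 tumours were Nol3 (-0.76), Nol7 (-0.64) and Rrp12 (-0.39). The OFF6 call of Rrp12 was lost without OFF6 replicate 2 (-0.15) or any 1 CTL array (-0.42 to -0.36). Leaving out 1 array also ended the OFF3 calls of Ddx10 (0.21 without OFF3 replicate 1 and 0.24 without CTL replicate 1), Dkc1 (-0.19 without OFF3 replicate 3 and -0.28 without CTL replicate 2), Nol8 (-0.22 to -0.14 without OFF3 replicate 2 or 3 or any 1 CTL array), Utp6 (-0.18 to -0.14 without OFF3 replicate 2 or 3 or CTL replicate 2) and Fbl (0.19 to 0.24 without TUM replicate 1, OFF3 replicate 1 or 2, OFF6 replicate 3 or CTL replicate 1 or 3). It ended the OFF6 calls of Ddx10 (0.25 without OFF6 replicate 2 and 0.24 without CTL replicate 1), Ddx51 and Nol12 (0.17 to 0.26 without OFF6 replicate 1 or 3 or CTL replicate 1), Nop2 and Utp4 (0.25 to 0.35 without OFF6 replicate 1 or 3), Utp14a (0.25 without OFF6 replicate 3) and Rrp36 (0.14 to 0.24, in 7 of the 12 fits).

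The split depended on scaling. With quantile normalisation, median centring and centring on the 75th percentile, OFF3 tumours had 21 genes higher and 16 lower, 21 and 12, and 20 and 15. OFF6 tumours had 26 and 8, 22 and 9, and 23 and 10. Quantile normalisation gave 5437 of all genes higher and 6887 lower in OFF3 tumours, and 5232 and 6511 in OFF6 tumours. Among all genes the median centring gave 4665 higher and 12243 lower in OFF3 tumours and 4486 and 12001 in OFF6 tumours, and the centring on the 75th percentile gave 4583 and 12230, and 4375 and 11991, against 5657 and 8253, and 5602 and 7188, as deposited.

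Nop58 had the largest difference from muscle in OFF6 tumours, 1.46 ± 0.08, and Npm1 in OFF3 tumours, 1.54 ± 0.09. Nhp2 differed by 1.05 ± 0.07 in OFF3 and 1.20 ± 0.07 in OFF6 tumours, and Npm1 by 1.20 ± 0.09 in OFF6 tumours. Bop1 (1.14 ± 0.14), Polr1e (0.89 ± 0.09) and Rrp1b (0.81 ± 0.11) were next in OFF6 tumours, and Ddx52, a helicase of the small subunit pathway, reached 0.81 ± 0.11 in OFF3 tumours. Dkc1 was at -0.03 ± 0.10 in OFF6 tumours, with arrays of 8.65, 8.52 and 8.74, against 8.56, 8.74 and 8.70 in CTL muscle. Those values overlapped, and the 95% interval of the difference ran from -0.26 to 0.20.

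Other genes of the pathway were listed by function from general knowledge, with earlier results of these data known. Of 83 further biogenesis factors, 64 were called lower in OFF3 than in TUM tumours, with a median of -0.44, and 44 in OFF6 than in TUM tumours, with a median of -0.28. Without OFF3 replicate 3, 53 were called lower in OFF3 tumours, and without OFF6 replicate 2, 37 lower and 2 higher in OFF6 tumours. In TUM tumours 61 of the 83 were called higher than in CTL muscle and 5 lower. The largest OFF3 differences were those of Ruvbl2 (-1.23), an ATPase that helps to assemble nucleolar particles, Naf1 (-1.01), an assembly factor of the box H/ACA particles, and Wdr46 (-0.9998), a processome protein. Of 10 subunits of the RNA exosome, which trims ribosomal RNA precursors, 8 were called lower in OFF3 tumours, with Exosc8 (-1.04), Dis3 (-0.82) and Exosc2 (-0.75) leading.

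Ribosomal proteins are the parts that these factors join to ribosomal RNA. Of 60 genes of cytosolic ribosomal proteins, 3 were called lower and 1 higher in OFF3 than in TUM tumours, with a median of 0.00. Without OFF6 replicate 2, 6 were called higher and 3 lower, and without OFF3 replicate 3, 1 higher and 0 lower (limma; 4 lower at an unadjusted p under 0.05). The per-array mean of these genes was 10.93, 10.89 and 10.93 in OFF3 tumours, against 10.92, 10.88 and 10.91 in TUM tumours, so the 2 groups overlapped. The gene called higher was Rpl3l (1.38), a paralog of Rpl3 known from mature muscle, and the largest fall was that of Rpl12 (-0.66). In OFF6 tumours 10 were called lower and 1 higher than in TUM tumours, with a median of -0.10, and without OFF6 replicate 2 18 were lower. In TUM tumours 52 were called higher than in CTL muscle and 4 lower, with a median of 0.55. The genes named for RNA polymerases II and III had smaller medians, although the nuclear polymerases share some subunits. Of 12 named for RNA polymerase II, 4 were called lower in OFF3 than in TUM tumours (median -0.03). Polr2e (-0.63), Polr2d (-0.51) and Polr2c (-0.41) led. Of 8 named for RNA polymerase III, 3 were called lower (median -0.21), with Polr3g (-0.73), Polr3b (-0.46) and Polr3e (-0.26) leading. These lists were not tested against each other.

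Small nucleolar RNA genes, whose products sit in the particles of Fbl and Dkc1, were called higher in 16 of 51 cases in OFF3 tumours and lower in 3, with a median of 0.29. Without OFF3 replicate 3, 5 were called higher and 1 lower. In OFF6 tumours 4 were called higher than in TUM tumours and 6 lower, with a median of 0.08. Without OFF6 replicate 2 the direction of the median turned, to -0.13, with 11 called lower and 0 higher (limma; 4 higher at an unadjusted p under 0.05). Snora44 differed most, with 10.36, 10.56 and 11.04 in OFF3 tumours, against 7.77, 8.0 and 7.99 in TUM tumours, a difference of 2.73 ± 0.50. Snora74a (1.06) and Snord15b (1.05) followed. In OFF6 tumours Snora44 had 8.19, 10.61 and 8.07, with replicate 2 at the level of OFF3 tumours and the others at that of TUM tumours. Many small nucleolar RNAs lie in introns of other genes, so a probe set for them can also read the host transcript.

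**Figure D5:**
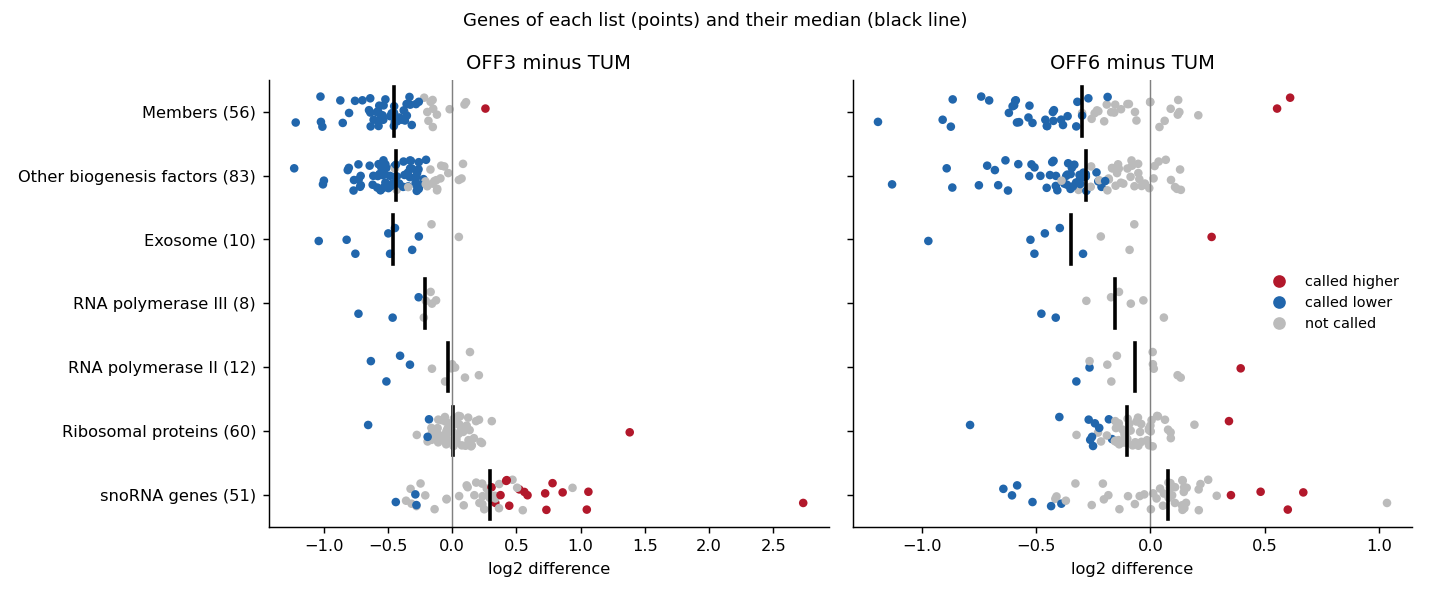
Log2 difference (x axis) of each gene in 7 lists (y axis), OFF3 minus TUM on the left and OFF6 minus TUM on the right, coloured by call, with a black line at each list's median. At day 3 the medians of the 56 genes (-0.45) and of the other biogenesis factors (-0.44) lie left of 0, and those of ribosomal proteins (0.00) and small nucleolar RNA genes (0.29) do not.

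Several of the 56 genes have limits of measurement. For 53 of the 56, the probe set used is numbered among probe sets of genes on the gene's own chromosome. The probe sets of Ddx18, Polr1d and Wdr12 are numbered among those of another chromosome, and each of these genes had a second probe set numbered among genes of its own. For Ddx18 and Wdr12 the second probe set moved the same way against TUM tumours, by -0.51 and -0.87 in OFF3 tumours. In OFF6 tumours it gave -0.41 and -0.70, against -0.59 and -0.27 for the sets used. Between OFF6 and CTL, that of Ddx18 gave -0.05, while the set used was called higher. The second probe set of Wdr12 had means of 6.645 in OFF3 and 6.813 in OFF6 tumours, against 8.243 and 8.611 for the set used. The second probe set of Polr1d did not move the same way as the set used. It gave 0.02 between OFF3 and TUM, 0.16 between OFF6 and TUM and -0.30 between TUM and CTL, so the direction of Polr1d is uncertain. The second probe set of Ddx54 also differed in direction, with 0.08 between OFF3 and TUM and -0.55 between TUM and CTL. A second probe set of Fbl, itself numbered among genes of another chromosome, gave -0.51 between OFF3 and TUM and 1.06 between TUM and CTL, close to the values above. Probe sets shared with another gene, 3 of them between Npm1 and Gm15484, were left out.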

How the data were processed

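The values are linear probe-set intensities that the authors deposited after RMA (background correction, quantile normalisation and probe summary), per the submitters' processing notes, whose version was not given. Array medians ran from 86.74 to 93.05. The intensities were log2 transformed. Of 34760 probe sets, 21640 had 1 gene symbol, 1321 several and 11799 none. The single-symbol probe set with the highest mean stood for each of the 19937 genes, 954 of which had several. One limma (3.58.1, R 4.3.3) model with 4 groups and no covariates was fitted to 12 arrays, moderated with eBayes, and 6 contrasts were adjusted by Benjamini-Hochberg over all genes at 0.05, two-sided. No filter on low values was used, so all 56 genes were tested, and all matched RefSeq by Entrez ID. The fit was tested on simulated data. All 56 genes were counted by role, and most were named. Those named included a fixed set and the 6 largest called differences of each comparison. They also included genes called against the direction of most, and genes not called in OFF3 or OFF6 against TUM tumours. All genes called between OFF6 and OFF3 tumours were named as well. From some other lists, up to 3 genes with the largest OFF3 minus TUM differences were named. The members and lists were chosen with earlier results of these data known. Same-numbered arrays did not deviate together (r of deviations from -0.387 to 0.249), so the numbers were not treated as pairs. Alternatives changed the probe-set choice, level filter, added intensity, scaling, variance model, weights, replicate block, threshold and arrays used. Array number limits the precision: the median standard error for OFF3 minus TUM was 0.0863 over all genes.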

Additional observations from a re-analysis of the deposited data

Results flagged for a closer look

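The 11 genes below were called between the times after withdrawal by the direct OFF6 minus OFF3 test in limma. Of all 19937 genes, 2080 were called. For the 11, a call means unequal changes from the shared TUM arrays at the 2 times. Among the polymerase subunits, these were Polr1b (0.753) and Polr1e (0.479). Among the small subunit factors they were Rrp12 (0.83), Rrp9 (0.636) and Utp6 (0.26). Among the large subunit factors they were Nop2 (0.505), Bop1 (0.497) and Wdr12 (0.368). The second probe set of Wdr12 had means of 6.645 in OFF3 and 6.813 in OFF6 tumours, against 8.243 and 8.611 for the set used. Rrp8 (0.262) and Nol3 (0.296) were also higher in OFF6 tumours, and Npm1 was lower (-0.344). Rrp12 differed in sign between the times, at 0.61 in OFF6 and -0.22 in OFF3 tumours relative to TUM tumours, the second of which was not called.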

How the results depend on the processing

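Over 56 genes, 6 comparisons and the alternatives, 7666 of 8382 values were counted as the same. Of the rest, 522 lost their call, 169 gained one and 25 reversed. A change of sign was counted as reversed only where the main fit or the alternative called the gene. Where neither did, it was counted as the same. Leaving out 1 array at a time gave 37 to 45 genes lower in OFF3 than in TUM tumours, 24 to 31 lower in OFF6 than in TUM tumours, 2 to 27 called either way between OFF6 and OFF3 tumours, and 41 to 46 higher in TUM, 26 to 32 in OFF3 and 33 to 40 in OFF6 tumours than in CTL muscle. The comparison of OFF6 with OFF3 tumours moved from 11 genes to 18 among genes above the median level. It moved to 45 with array weights, where 4120 of all genes were higher and 4304 lower, against 1206 and 874. With a replicate block it moved to 7, with 965 of all genes higher and 689 lower. It fell to 3 at an adjusted p under 0.01, and to 0 both at 2-fold or more and on the 6 arrays alone. On those 6 arrays, limma gave 23 of the 56 and 3698 of all genes an unadjusted p under 0.05. In the model of all arrays, 30 of the 56 and 4891 of all genes had one. The replicate block left 42, 29, 44, 28 and 39 calls in the other comparisons, taken in the order above. In the same directions it called 2981, 3121, 5981, 5596 and 5508 of all genes. Asking for 2-fold left 4 and 1 genes lower in OFF3 and OFF6 than in TUM tumours. It left 14, 3 and 4 higher in TUM, OFF3 and OFF6 tumours than in CTL muscle. Centring on the median and on the 75th percentile left 22 and 23 higher in OFF6 tumours than in CTL muscle, with 4486 and 4375 of all genes. For 2-fold, an adjusted p under 0.01 and the level filter, counts over all genes are not given here. They are not given for most fits without 1 array either, and such settings can move all genes. The reversed values were as follows. With the dimmest probe set, Polr1d gave 0.020 (OFF3 minus TUM), 0.16 (OFF6 minus TUM), -0.30 (TUM minus CTL), -0.28 (OFF3 minus CTL) and -0.14 (OFF6 minus CTL), Ddx54 gave -0.55 (TUM minus CTL), -0.47 (OFF3 minus CTL) and -0.35 (OFF6 minus CTL), Ddx18 gave -0.053 (OFF6 minus CTL) and Nol4 gave 0.27 (TUM minus CTL) and 0.43 (OFF3 minus CTL). With the mean of probe sets, OFF3 minus CTL was -0.029 for Ddx54 and 0.22 for Nol4. With array weights Ddx51 was 0.14 (OFF3 minus TUM). With quantile normalisation, TUM minus CTL was -0.092 for Utp25, -0.16 for Utp6 and -0.010 for Wdr12, OFF3 minus CTL was -0.24 for Utp25, and OFF6 minus CTL was -0.0099 for Rrp15 and -0.031 for Rrp36. With centring on the 75th percentile, TUM minus CTL was -0.0056 for Nop53, -0.061 for Utp25, -0.17 for Utp6 and -0.00106 for Wdr12, and OFF3 minus CTL was -0.19 for Utp25. For these changes the cause was not tested.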
